A study of Mus musculus with 22 samples.

Results

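The receptors for cytokines of the gp130 family, the Janus kinases (JAKs) that they use and their feedback inhibitor Socs3 were followed as 10 genes of the 24060 in the deposited tables, chosen by symbol: Il6st, Lifr, Osmr, Cntfr, Il6ra, Il11ra1, Lepr, Jak1, Jak2 and Socs3. All 10 had a row in every one of the 22 libraries. A cytokine of this family binds a receptor subunit of its own, which then joins gp130, the signalling chain that the family shares. JAKs bound to the inner side of the chains phosphorylate the receptor and the transcription factor STAT3, and STAT3 in turn drives Socs3, whose protein blocks the receptor complex. In injured nerve tissue this route is known for its part in the change of astrocytes to a reactive state.

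The libraries came from spinal cord of young adult female mice, 1 HA immunoprecipitate (HA IP) and 1 flow-through library from each of 11 animals. STAT3-CKO SCI mice (n = 3) carried mGFAP-Cre, RiboTag and STAT3-LoxP and had a severe crush at thoracic level 10. WT SCI mice (n = 4) carried mGFAP-Cre and RiboTag without the STAT3-LoxP allele and had the same crush. WT uninjured mice (n = 4) had the genotype of WT SCI mice and no injury. Injury-free STAT3-CKO mice were not analysed here, so the effect of the deletion can be read in injured tissue only. Injured tissue was the central 3 mm of the lesion, taken 14 days after the crush. All 3 groups share the Cre, which a mouse Gfap promoter drives, and RiboTag, an allele that puts a hemagglutinin (HA) tag on ribosomes of cells with Cre activity. The HA IP is meant to draw ribosome-bound RNA of cells with a history of Gfap promoter activity, and the flow-through holds the RNA that was left unbound in the same homogenate.

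Library depth differed widely. The HA IP libraries held 31292491 to 59337089 counts and the flow-through libraries 3898755 to 11242654. The ribosomal RNA precursor Rn45s took 49.95% to 89.2% of counts in STAT3-CKO SCI libraries, 89.0% to 96.2% in WT SCI libraries and 9.49% to 39.7% in WT uninjured libraries of both fractions. Outside the ribosomal rows, the HA IP libraries held 2496641 to 17348247 counts in STAT3-CKO SCI, 620265 to 2691494 in WT SCI and 26934866 to 51571785 in WT uninjured animals. The flow-through of WT SCI animal 9935 held only 91626 such counts. Levels below are CPM, counts per 1000000 of a library size scaled by the TMM method, and they are relative within a fraction. Stat3 lay at 7.85 to 12.3 CPM in HA IP of STAT3-CKO SCI animals, 26.3 to 66.2 CPM of WT SCI animals and 12.2 to 15.5 CPM of WT uninjured animals. Every WT SCI library lay above all others. The ranges of STAT3-CKO SCI and WT uninjured animals overlapped, so Stat3 cannot check the labels between those groups. Of 9 astrocyte markers, 9 were higher in HA IP than in flow-through in STAT3-CKO SCI animals, 7 in WT SCI animals and 9 in WT uninjured animals. Of all genes tested, 7.12%, 4.09% and 26.4% were called higher in the same order. Markers of other cells were found in the HA IP too. The 7 oligodendrocyte markers summed there to 3465 to 4070 CPM in STAT3-CKO SCI, 5742 to 8460 CPM in WT SCI and 1339 to 1770 CPM in WT uninjured animals, the second of these above the astrocyte sum of the same group (3110 to 5488 CPM). Against WT uninjured animals, 6 of these 7 rose in HA IP of STAT3-CKO SCI and 7 of WT SCI animals, as did 4 and 5 of the 5 markers of oligodendrocyte precursors. The shares of all genes tested that were called higher there were 7.7% and 15.8%.

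Among the 10 genes, the promoter that carries a letter match for the STAT binding motif is shown first. Those of the receptors Osmr and Il6ra follow. The motif searched was TTCNNNGAA, which reads the same on both strands, in the 250 bases before each RefSeq start (build GRCm38.p6). It was present before 2306 of 32851 starts, a share of 7.02%, and it was found before 1 of the 18 starts listed for the 10 genes. That start was the one of Socs3, at chr11:117969367-117969616 on the minus strand, where the match TTCTTAGAA begins 154 bases before the start. Neither the Osmr stretch (chr15:6874314-6874563, minus strand) nor the Il6ra stretch (chr3:89913197-89913446, minus strand) holds these letters. The Socs3 and Osmr stretches lie inside the gene coordinates given below. Those come from another annotation (GENCODE), in which these genes start further upstream. Each sequence runs 5′ to 3′ on the strand of the gene, and capitals mark the match.
Socs3: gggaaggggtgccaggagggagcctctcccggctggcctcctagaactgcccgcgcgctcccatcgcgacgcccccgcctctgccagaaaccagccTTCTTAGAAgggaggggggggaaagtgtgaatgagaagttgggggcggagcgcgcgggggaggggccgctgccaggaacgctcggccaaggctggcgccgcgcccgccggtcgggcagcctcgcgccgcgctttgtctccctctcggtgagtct
Osmr: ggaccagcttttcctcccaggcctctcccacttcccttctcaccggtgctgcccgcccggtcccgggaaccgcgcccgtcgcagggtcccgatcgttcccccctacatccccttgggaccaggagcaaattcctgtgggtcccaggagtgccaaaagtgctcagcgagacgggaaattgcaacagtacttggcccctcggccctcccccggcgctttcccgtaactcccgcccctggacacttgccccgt
Il6ra: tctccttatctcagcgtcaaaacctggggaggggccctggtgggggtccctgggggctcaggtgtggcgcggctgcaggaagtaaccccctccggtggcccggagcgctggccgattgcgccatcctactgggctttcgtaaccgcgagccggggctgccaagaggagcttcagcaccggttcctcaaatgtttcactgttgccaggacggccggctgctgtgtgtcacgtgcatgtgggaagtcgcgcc

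Per length of transcript, the receptors of the HA IP changed their order between conditions. In STAT3-CKO SCI animals Cntfr led with 14.3 ± 1.61 CPM per kb (SD, n = 3), followed by Il11ra1 with 11.3 ± 6.69 and Lifr with 9.9 ± 1.52 CPM per kb, and the ranges of these neighbours overlapped. In WT SCI animals Il11ra1 led with 24.9 ± 20.9 CPM per kb (SD, n = 4), above the whole range of Lifr at 6.16 ± 1.73 CPM per kb, while Lifr, Cntfr, Jak1 and Il6st overlapped from one to the next. In WT uninjured animals Cntfr led with 26.6 ± 2.22 CPM per kb (SD, n = 4), clear of Jak1 at 7.84 ± 0.909 CPM per kb. Osmr, Socs3 and Lepr held the lowest 3 places in HA IP of STAT3-CKO SCI and WT SCI animals, at 0.0184 to 0.521 CPM per kb except Socs3 in WT SCI at 1.38 ± 0.491 CPM per kb. Lengths are those of the RefSeq transcript named in each row. With the length of all annotated exons in place of it, the lead gene of each HA IP group was the same, and Lifr moved to the fifth place in each, since its named transcript is 3.392 kb long and its exons together 10.776 kb.

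Injury in WT animals was read first in HA IP. Of the 10 genes, 3 rose and 1 fell, where 26.7% of the 14764 genes tested were called (15.8% higher and 10.9% lower) at an adjusted p under 0.05 (edgeR's quasi-likelihood test with Benjamini-Hochberg adjustment, which gave all adjusted p-values below unless another tool is named). Their median log2 fold change was 0.54, against 0.00017 over all genes tested. Socs3, Il6ra and Il11ra1 were the genes that rose, and Cntfr was the one that fell. The shared chain Il6st did not pass the test. For 5 of the 10 genes, these 4 and Jak1, the libraries of the groups did not overlap, where 33.2% of all genes tested did not.

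Socs3, the feedback inhibitor (chr11:117966079-117970047, minus strand, gene coordinates here and below on GRCm38, the assembly of mm10), had 3.98, 3.84, 1.70 and 4.56 CPM in WT SCI animals 9596, 9843, 9874 and 9935. In WT uninjured animals 42, 65, 79 and 154 it had 0.0503, 0.0918, 0.193 and 0.153 CPM. Every WT SCI library lay above every WT uninjured library. The log2 fold change was 4.83 (SE 0.73, adjusted p = 9.26e-05), a 28.4-fold rise. The WT SCI values rest on 109 counts in all, from 14 to 58 per library.

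Il6ra, the subunit that binds interleukin 6 and also circulates in soluble form (chr3:89864059-89913196, minus strand), had 5.01, 6.45, 15.8 and 2.93 CPM in WT SCI animals 9596, 9843, 9874 and 9935. It lay between 0.237 and 0.380 CPM in WT uninjured animals. Animal 9874 stood highest, and the groups did not overlap. The log2 fold change was 4.65 (SE 0.57, adjusted p = 1.03e-05), and it was 4.00 without animal 9874, a fold that is more than 1.5 times smaller. Markers of microglia and macrophages, cells that are rich in this receptor, moved with it. Their 10 markers summed to 571 to 2071 CPM in HA IP of WT SCI animals and 9.7 to 24.5 CPM of WT uninjured animals, 9 of the 10 rose and none was at 0 in a group. The part of these cells in the Il6ra values was not tested.

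Cntfr, the subunit for ciliary neurotrophic factor that is held in the membrane by a lipid anchor (chr4:41657498-41697089, minus strand), had 9.74, 14.7, 12.7 and 8.47 CPM in WT SCI animals 9596, 9843, 9874 and 9935, whereas WT uninjured animals 42, 65, 79 and 154 had 47.1, 48.2, 55.9 and 53.8 CPM. All WT SCI libraries lay below all WT uninjured ones, and the level fell 4.48-fold (log2 fold change -2.16, SE 0.26, adjusted p = 8.69e-06). In bulk tissue, fewer cells of a type and less RNA per cell cannot be told apart. The 9 astrocyte markers summed to 3110 to 5488 CPM in HA IP of WT SCI animals and 4020 to 4954 CPM of WT uninjured animals, with 1 of 9 called higher and 5 of 9 called lower. Neuronal markers in the same libraries summed to 66.5 to 173 CPM in WT SCI and 359 to 664 CPM in WT uninjured animals, with 5 of 8 called lower, and their part in the Cntfr values was not tested.

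Il11ra1, the subunit for interleukin 11 (chr4:41699989-41769474, plus strand), had 21.1, 20.9, 35.8 and 98.4 CPM in WT SCI animals 9596, 9843, 9874 and 9935, whereas the level was 8.82, 12.9, 13.6 and 9.89 CPM in WT uninjured animals 42, 65, 79 and 154. The WT SCI libraries were all higher, with animal 9935 far above the other 3. The log2 fold change was 1.94 (SE 0.48, adjusted p = 0.00573). Without animal 9935 it was 1.20 (adjusted p = 0.0331). That library also had the largest Rn45s share of the HA IP libraries, 96.2%, and the fewest counts outside ribosomal rows, and the part of either in the value was not tested. Near-identical copies of the gene (Il11ra2, Gm13305 and Gm2002) were at 0 counts in every library, so how reads were shared out among the copies is not known and the Il11ra1 counts are uncertain.

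The other 6 genes did not pass the test in this comparison. Il6st, which encodes gp130 itself (chr13:112464070-112510086, plus strand), had 28.3, 36.6, 41.4 and 28.7 CPM in WT SCI animals 9596, 9843, 9874 and 9935, whereas the level was 39.9, 36.9, 28.4 and 31.97 CPM in WT uninjured animals 42, 65, 79 and 154. The groups overlapped throughout, with a log2 fold change of -0.02 (SE 0.24, adjusted p = 0.955). Lifr, the chain that joins gp130 for leukaemia inhibitory factor and ciliary neurotrophic factor, averaged 20.9 ± 5.88 CPM in WT SCI and 17.4 ± 4.27 CPM in WT uninjured animals (SD, n = 4 each; adjusted p = 0.526). Jak1, the kinase that gp130 signalling is known to depend on most, had 30.5, 28.8, 16.4 and 14.0 CPM in WT SCI animals 9596, 9843, 9874 and 9935, against 34.6 to 43.8 CPM in WT uninjured animals. Its libraries did not overlap, yet the log2 fold change of -0.77 (SE 0.29) missed the threshold with an adjusted p of 0.0558. It passed in DESeq2 (adjusted p = 0.0337), with no filter (0.0494), without ribosomal rows (0.036), with only the 2 groups in the fit (0.0436), and without WT SCI animal 9843, WT SCI animal 9596 or STAT3-CKO SCI animal 270 (0.0401, 0.0269 and 0.0467). Jak2, the second kinase of the route, averaged 7.82 ± 2.68 CPM in WT SCI and 7.89 ± 0.485 CPM in WT uninjured animals (SD, n = 4 each; adjusted p = 0.993).

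Osmr, the chain that joins gp130 for oncostatin M (chr15:6813577-6874969, minus strand), was uneven among WT SCI animals. It had 5.90, 4.19, 1.36 and 0 CPM in WT SCI animals 9596, 9843, 9874 and 9935, against 0.959, 1.79, 1.18 and 1.11 CPM in WT uninjured animals 42, 65, 79 and 154. A pair of WT SCI libraries lay above all WT uninjured libraries, while the 0 counts of animal 9935 allow a level of up to 0.978 CPM (3 counts, counting error only). The log2 fold change was 1.24 (SE 0.76, adjusted p = 0.234). Lepr, the leptin receptor, which signals through Jak2 without gp130 (chr4:101717404-101815352, plus strand), was close to this limit, with 8 counts over the 4 WT SCI libraries, 7 of them in animal 9843. In WT uninjured animals 170 of its 214 counts came from animal 42, and no difference was detectable at this depth (adjusted p = 0.66).

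**Figure D1:**
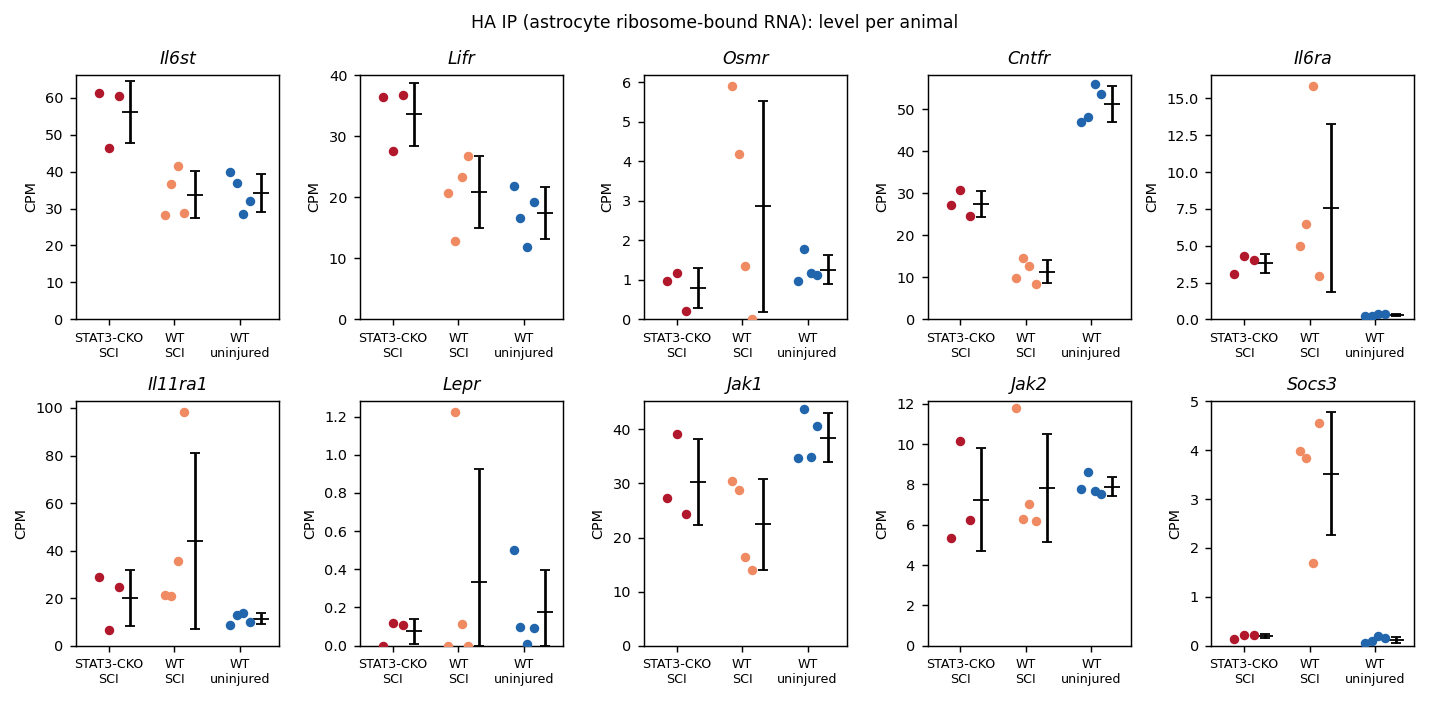
CPM of each gene in HA IP (y axis, linear, own scale per panel), with 1 point per animal for STAT3-CKO SCI (n = 3), WT SCI (n = 4) and WT uninjured (n = 4); black bars give mean ± SD, with the lower end stopped at 0. Socs3 sits at 1.70 to 4.56 CPM in WT SCI animals and at 0.225 CPM or less in all others, and Cntfr is lowest in WT SCI and highest in WT uninjured animals.

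Deletion of STAT3 was read in injured tissue, STAT3-CKO SCI against WT SCI. In HA IP, 1 of the 10 genes was higher and 1 lower, where 1.16% of the 14764 genes tested were called (0.596% higher and 0.562% lower). Socs3 was the lower gene and Cntfr the higher one. The median log2 fold change of the 10 genes was -0.56, against 0.03 over all genes tested. The libraries of the 2 groups did not overlap for 4 of the 10 genes, Socs3, Cntfr, Il6st and Lifr, where 9.19% of all genes tested did not overlap.

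Socs3 had 0.140, 0.225 and 0.215 CPM in HA IP of STAT3-CKO SCI animals 186, 270 and 531, against 1.70 to 4.56 CPM in WT SCI animals. These values rest on 2, 26 and 8 counts in STAT3-CKO SCI animals, and all 3 libraries lay below every WT SCI library. Socs3 fell 17.3-fold (log2 fold change -4.12, SE 0.83, adjusted p = 0.0201). The adjusted p was 0.0746 with libraries thinned to equal depth, 0.0836 with only the 2 groups in the fit, and 0.0561, 0.0871 and 0.0905 without animals 186, 531 and 270. Set against WT uninjured animals, STAT3-CKO SCI animals overlapped them (log2 fold change 0.71, SE 0.72, adjusted p = 0.617).

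Cntfr had 27.2, 30.7 and 24.6 CPM in HA IP of STAT3-CKO SCI animals 186, 270 and 531, between the values of the WT SCI animals (8.47 to 14.7 CPM) and those of the WT uninjured animals (47.1 to 55.9 CPM). It was 2.41-fold higher than in WT SCI animals (log2 fold change 1.27, SE 0.27, adjusted p = 0.0257), and 1.86-fold lower than in WT uninjured animals (log2 fold change -0.90, SE 0.27, adjusted p = 0.041). Neuronal markers summed to 110 to 261 CPM in HA IP of STAT3-CKO SCI animals. Of these, 0 of 8 were called against WT SCI (1.16% of all genes tested) and 1 of 8 was called lower than in WT uninjured animals (2.08% of all genes tested). Astrocyte markers summed to 2625 to 3363 CPM, with 0 of 9 called higher and 1 lower than in WT SCI. That marker was Gfap, which is also on the list of genes induced through STAT3 given below. Against WT uninjured animals, with astrocyte sums of 4020 to 4954 CPM, 0 of the 9 were called higher and 3 lower. Over all genes tested 7.7% were called higher and 2.08% lower in that comparison. The first call of Cntfr had an adjusted p of 0.291 with only the 2 groups in the fit and of 0.054 to 0.108 without any 1 of the 3 STAT3-CKO SCI libraries or of WT uninjured libraries 65, 79 and 154. The second call of Cntfr had an adjusted p of 0.0527 with libraries thinned to equal depth, and up to 0.159 without STAT3-CKO SCI animal 531, with 6 single libraries whose omission ended the call (STAT3-CKO SCI 186 and 531, WT uninjured 42, 65, 79 and 154).

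The signalling chains Il6st and Lifr were higher in STAT3-CKO SCI than in WT SCI animals by values, without passing the test. Il6st had 61.2, 46.5 and 60.6 CPM in STAT3-CKO SCI animals 186, 270 and 531, all above the WT SCI range of 28.3 to 41.4 CPM (log2 fold change 0.73, SE 0.26, adjusted p = 0.168). Lifr had 36.4, 27.7 and 36.8 CPM in the same animals, all above the WT SCI range of 12.9 to 26.7 CPM (log2 fold change 0.69, SE 0.31, adjusted p = 0.279). Against WT uninjured animals, Lifr missed the threshold with an adjusted p of 0.0551 and passed it with 0.0398 in DESeq2, with 0.0116 when only the 2 groups were fitted, and with 0.0332 to 0.0399 without WT SCI animal 9843, 9874 or 9935. Il6st did likewise, with an adjusted p of 0.0926, and of 0.0223 when only the 2 groups were fitted.

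Il6ra stayed high in HA IP of STAT3-CKO SCI animals, at 3.08, 4.33 and 4.02 CPM in animals 186, 270 and 531. That was 12.6-fold above WT uninjured animals (log2 fold change 3.65, SE 0.56, adjusted p = 0.000195), and it did not differ from WT SCI animals past the threshold (log2 fold change -1.002, SE 0.55, adjusted p = 0.371). The microglia and macrophage markers summed to 730 to 988 CPM in these libraries. Of the 10 markers 0 were called between STAT3-CKO SCI and WT SCI, where only 1.16% of all genes tested were called. Il11ra1 had 28.7, 6.58 and 24.8 CPM in STAT3-CKO SCI animals 186, 270 and 531 and was called in neither comparison. Animal 270, the lowest, had an Rn45s share of 52.2%, against 89.2% and 80.0% in animals 186 and 531. Osmr lay at 0.981, 1.17 and 0.215 CPM in animals 186, 270 and 531, without a call against WT SCI (log2 fold change -1.92, SE 0.88, adjusted p = 0.285). Jak1 averaged 30.3 ± 7.87 CPM and Jak2 7.24 ± 2.56 CPM in STAT3-CKO SCI animals (SD, n = 3), with adjusted p-values of 0.511 and 0.909 against WT SCI. Lepr had 0, 14 and 4 counts and was not called. Against WT uninjured animals 2 of the 10 genes were called in all, Il6ra higher and Cntfr lower, where 9.78% of genes tested were called (7.7% higher and 2.08% lower). The groups did not overlap for 4 of the 10 genes, where 36.1% of all genes tested did not. Both comparisons with WT uninjured animals share those 4 libraries.

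**Figure D2:**
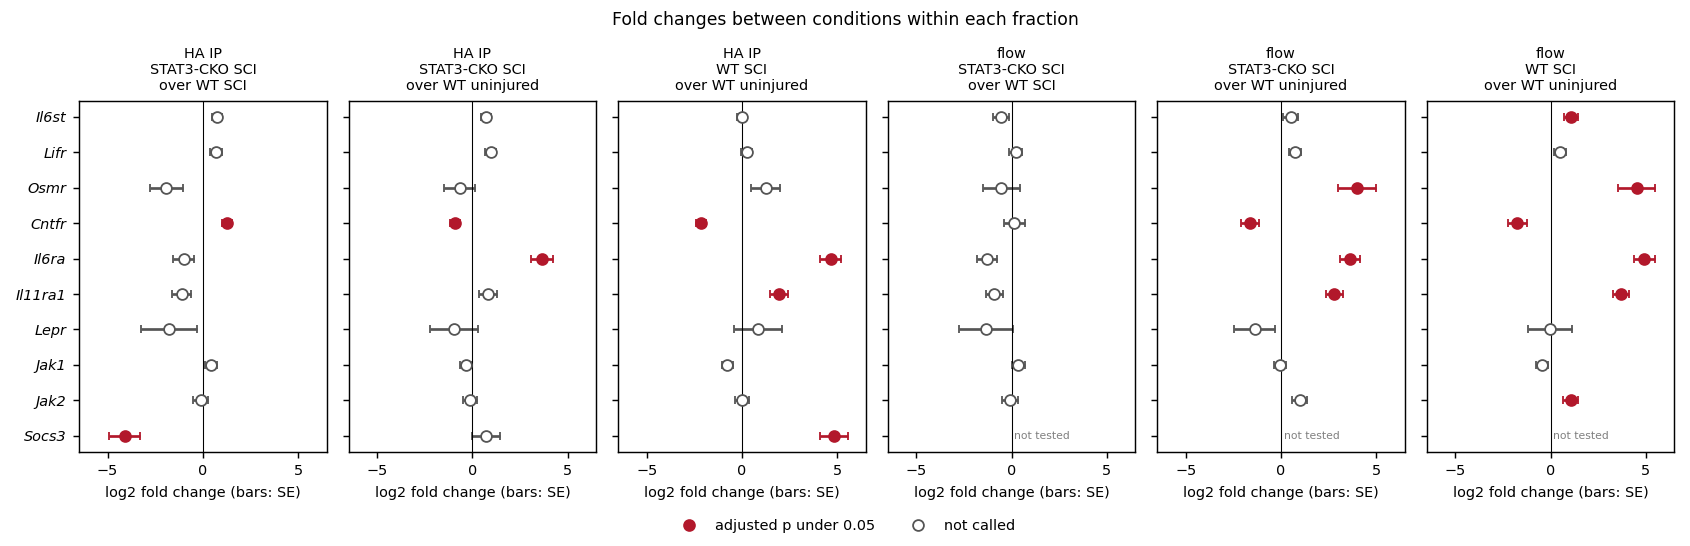
Log2 fold change of each gene (x axis, linear) with its SE in 6 comparisons, HA IP in the left 3 panels and flow-through in the right 3; filled red points were called at an adjusted p under 0.05. Socs3 lies at -4.12 for STAT3-CKO SCI over WT SCI and at 4.83 for WT SCI over WT uninjured in HA IP, and no gene was called for STAT3-CKO SCI over WT SCI in flow-through.

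The unbound RNA of the same homogenates gave the same comparisons outside the tagged ribosomes, at a lower depth. In flow-through, 9 of the 10 genes passed the filter on low counts, and Socs3 did not. For WT SCI against WT uninjured, 5 of the 9 rose and 1 fell, where 31% of the 12685 genes tested were called (16.7% higher and 14.3% lower). The groups did not overlap for 3 of the 9, where 31.3% of all genes tested did not. Their median log2 fold change was 1.06, against -0.09 over all genes tested. RLE scaling moved that median of all genes by -0.12 here, and by -0.16 for STAT3-CKO SCI against WT uninjured. A count of 3 corresponded to 1.02 to 5.91 CPM in WT SCI flow-through libraries and 0.0477 to 0.168 CPM in WT uninjured ones, so low values in WT SCI animals carry a wide counting error.

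Il6ra had 23.9, 11.8, 33.3 and 15.8 CPM in flow-through of WT SCI animals 9596, 9843, 9874 and 9935, against 0.175, 0.617, 0.737 and 1.30 CPM of WT uninjured animals 42, 65, 79 and 154. The groups were far apart, 30.2-fold (log2 fold change 4.92, SE 0.55, adjusted p = 1.08e-07). The microglia and macrophage markers summed to 2673 to 7937 CPM in flow-through of WT SCI animals and 33.3 to 68.0 CPM of WT uninjured animals, and 9 of 10 rose. Within WT SCI animals, 9874 had the highest Il6ra in both fractions while 9843 had the highest marker sum in both.

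Il11ra1 had 39.2, 36.2, 21.7 and 9.86 CPM in flow-through of WT SCI animals 9596, 9843, 9874 and 9935, against 1.51, 2.35, 2.73 and 2.11 CPM of WT uninjured animals 42, 65, 79 and 154. All WT SCI libraries were higher, 13-fold (log2 fold change 3.70, SE 0.44, adjusted p = 2.79e-07). Thinned to equal depth, the log2 fold change was 1.99 (adjusted p = 0.00921), which is more than 1.5 times smaller as a fold. Here animal 9935 was the lowest of the WT SCI libraries, with 5 counts, whereas in HA IP it was the highest.

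Cntfr fell in flow-through too, with 2.04, 8.12, 4.65 and 3.94 CPM in WT SCI animals 9596, 9843, 9874 and 9935 against 13.6 to 16.9 CPM in WT uninjured animals (log2 fold change -1.75, SE 0.50, adjusted p = 0.00933). Neuronal markers moved the same way, at 339 to 675 CPM in WT SCI and 2557 to 3255 CPM in WT uninjured animals, with 7 of 8 called lower. Astrocyte markers moved the other way, at 736 to 998 CPM in WT SCI and 261 to 308 CPM in WT uninjured flow-through. Of these, 5 of 9 were called higher and 0 lower. The part of either cell type in the Cntfr values was not tested.

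Osmr was called higher in flow-through of WT SCI animals (log2 fold change 4.51, SE 0.99, adjusted p = 0.000969), but the call came from a single library. Its counts were 29, 1, 0 and 0 in WT SCI animals 9596, 9843, 9874 and 9935, and 1, 5, 3 and 10 in WT uninjured animals 42, 65, 79 and 154. Without animal 9596 the gene did not pass the filter, so no value could be given. The same was true when libraries were thinned to equal depth. Il6st rose in WT SCI flow-through with 23.9, 40.6, 44.9 and 5.91 CPM in animals 9596, 9843, 9874 and 9935 against 10.2 to 22 CPM in WT uninjured animals (log2 fold change 1.06, SE 0.38, adjusted p = 0.035). Animal 9935 fell below the WT uninjured range on 3 counts. Jak2 also rose, with 15.7, 9.59, 18.6 and 5.91 CPM in the same WT SCI animals against 5.49 to 7.11 CPM in WT uninjured animals (log2 fold change 1.06, SE 0.39, adjusted p = 0.0407). Both calls ended under RLE scaling (adjusted p = 0.0545 for Il6st and 0.0676 for Jak2), and with only the 2 groups fitted (0.0833 and 0.087). That of Il6st also ended in DESeq2 (0.0581) and with thinned libraries (0.118), and that of Jak2 with no filter (0.0952). Il6st also lost its call without any 1 of 7 libraries (WT uninjured 65, 79 and 154, WT SCI 9843 and 9874, STAT3-CKO SCI 270 and 531), at 0.0535 to 0.134. Jak2 lost it without any 1 of 9 libraries, namely all but WT SCI 9843 and 9935, at 0.0504 to 0.119. Lifr, Jak1 and Lepr were not called, with log2 fold changes of 0.50, -0.43 and -0.04, and Jak1 passed without WT SCI animal 9843 (log2 fold change -0.92, adjusted p = 0.0241).

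In flow-through, 0 of the 9 tested genes were called for STAT3-CKO SCI against WT SCI by edgeR and 0 by DESeq2, where 0.118% of the 12685 genes tested were called (0.0867% higher and 0.0315% lower). For 0 of the 9 did the groups not overlap, where 9.26% of all genes tested did not. At an unadjusted p under 0.05 there was 1, Il6ra. It had 5.86, 12 and 7.89 CPM in STAT3-CKO SCI animals 186, 270 and 531 against 11.8 to 33.3 CPM in WT SCI animals (log2 fold change -1.28, SE 0.53, adjusted p = 0.298). Cntfr, called in HA IP, averaged 4.51 ± 3.26 CPM in flow-through of STAT3-CKO SCI animals (SD, n = 3) and 4.69 ± 2.54 CPM of WT SCI animals (SD, n = 4), with a log2 fold change of 0.14 (SE 0.55). Neuronal markers summed to 856 to 1160 CPM in flow-through of STAT3-CKO SCI and 339 to 675 CPM of WT SCI animals, with 1 of 8 called higher. Astrocyte markers summed to 314 to 687 CPM and 736 to 998 CPM in these groups, with 0 of 9 called higher and 1 lower. Socs3, not tested, had 0, 17 and 3 counts in STAT3-CKO SCI animals 186, 270 and 531, 2, 1, 2 and 3 counts in WT SCI animals 9596, 9843, 9874 and 9935, and 1 to 11 counts in WT uninjured animals. At these counts a genotype difference of Socs3 was not detectable in flow-through.

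For STAT3-CKO SCI against WT uninjured in flow-through, 3 of the 9 tested genes rose and 1 fell, where 13.9% of genes tested were called (10.4% higher and 3.53% lower). Of all calls in this comparison 74.7% were higher, against 62.6% of calls under RLE scaling. Il6ra was 12.4-fold higher (log2 fold change 3.63, SE 0.54, adjusted p = 1.26e-05). Il11ra1 had 26.8, 8.70 and 10.8 CPM in STAT3-CKO SCI animals 186, 270 and 531 against 1.51 to 2.73 CPM in WT uninjured animals (log2 fold change 2.79, SE 0.44, adjusted p = 3.38e-05). With libraries thinned to equal depth that log2 fold change was 1.03 (adjusted p = 0.312), which ends the call, and without STAT3-CKO SCI animal 186 it was 2.15 (adjusted p = 0.00156). Osmr had 10, 35 and 6 counts, or 4.19, 1.56 and 1.75 CPM, in STAT3-CKO SCI animals 186, 270 and 531 against 0.0159 to 0.280 CPM in WT uninjured animals, and all 3 libraries were higher (log2 fold change 3.97, SE 0.996, adjusted p = 0.00623). Osmr passed the filter of this fit only with WT SCI animal 9596, a library outside the comparison. With only the STAT3-CKO SCI and WT uninjured libraries fitted it was not tested, so the call depends on that library. Cntfr was 3.06-fold lower (log2 fold change -1.62, SE 0.47, adjusted p = 0.0203), a call that ended without any 1 of 5 libraries (STAT3-CKO SCI 186 and 531, WT uninjured 65, 79 and 154), at adjusted p-values of 0.0507 to 0.114. Without STAT3-CKO SCI animal 270, the highest of its group, the log2 fold change of Cntfr was -2.56 (adjusted p = 0.00479). Jak2 had 12.6, 14.99 and 9.65 CPM in STAT3-CKO SCI animals 186, 270 and 531, all above the 5.49 to 7.11 CPM of WT uninjured animals (log2 fold change 0.99, SE 0.39). It missed the threshold with an adjusted p of 0.0967 and passed in DESeq2 (0.0353) and with only the 2 groups fitted (0.0234). For 6 of the 9 genes the groups did not overlap, where 33.9% of all genes tested did not.

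**Figure D3:**
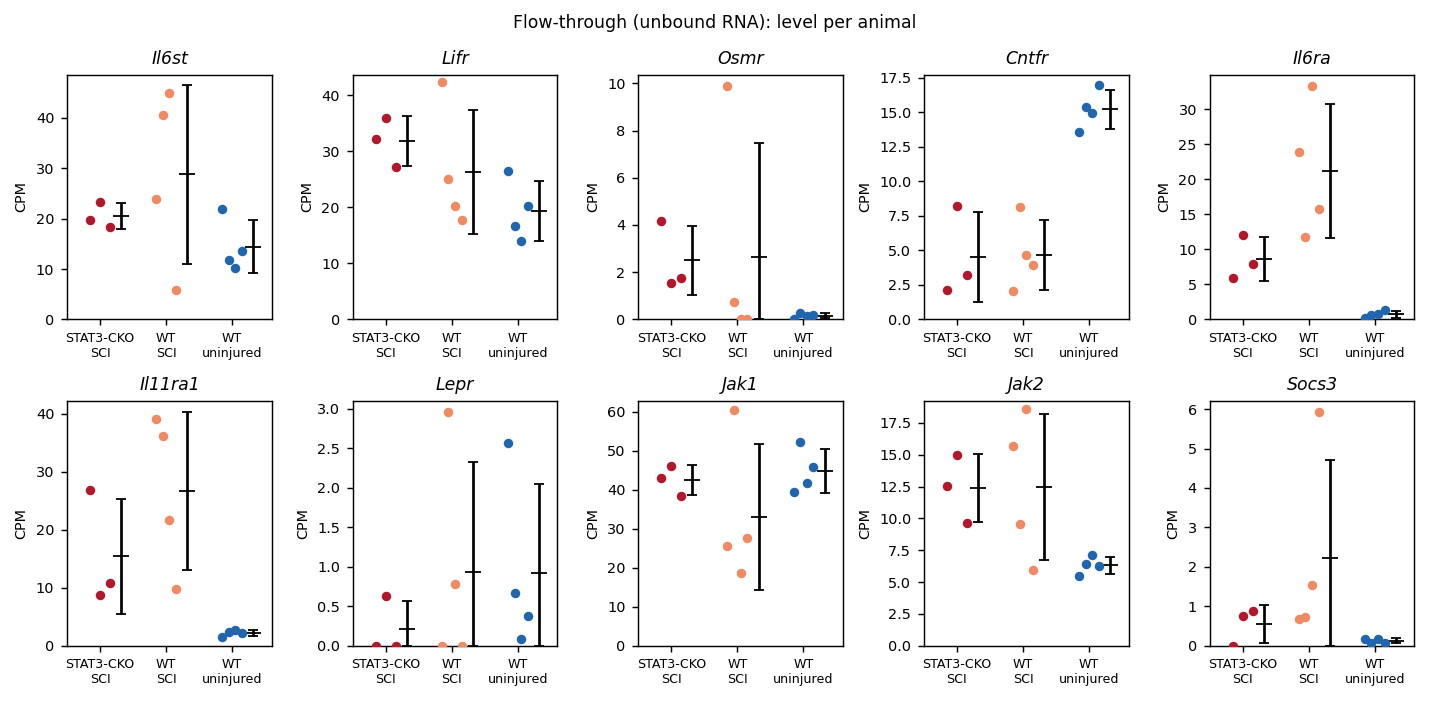
CPM of each gene in flow-through (y axis, linear, own scale per panel), with 1 point per animal for STAT3-CKO SCI (n = 3), WT SCI (n = 4) and WT uninjured (n = 4); black bars give mean ± SD, with the lower end stopped at 0. Il6ra and Il11ra1 are higher in all injured animals than in any WT uninjured animal, and the Osmr mean of WT SCI rests on 1 animal at 9.88 CPM.

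The HA IP was then set against the flow-through of the same condition, to see which of the genes stood out on the tagged ribosomes. Fits within a condition put both fractions on 1 scale. That scale was set for each condition on its own, so CPM from these fits cannot be compared between conditions or with the levels above. These fits took the 2 libraries of an animal as separate, and the animal as a block was an alternative. In STAT3-CKO SCI animals, 2 of 9 tested genes were higher in HA IP and none lower, where 11.8% of 12659 genes were called (7.12% higher and 4.7% lower). In WT SCI animals, edgeR called 0 of 7 tested genes (2 at an unadjusted p under 0.05), where 6.25% of 8466 genes were called (4.09% higher and 2.16% lower). Of 10 genes tested in WT uninjured animals, 5 were higher and none lower, where 50.7% of 14312 genes were called (26.4% higher and 24.2% lower). The fractions did not overlap for 4 of the 9 genes in STAT3-CKO SCI, 1 of the 7 in WT SCI and 5 of the 10 in WT uninjured animals, where 29.2%, 12.9% and 47.7% of all genes tested did not.

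Cntfr had 31.0, 35.9 and 28.1 CPM in HA IP of STAT3-CKO SCI animals 186, 270 and 531 against 1.98, 7.87 and 3.01 CPM in their flow-through (log2 fold change 2.71, SE 0.42, adjusted p = 0.000497), and without the flow-through of animal 270 the log2 fold change was 3.66. In WT SCI animals 9596, 9843, 9874 and 9935 it had 2.05, 3.17, 2.87 and 1.91 CPM in HA IP against 0.379, 1.56, 0.890 and 0.802 CPM in flow-through. All HA IP libraries of that group were higher, but the adjusted p was 0.196, and it was 0.00519 when all 22 libraries entered 1 fit. Cntfr had 245 to 282 CPM in HA IP of WT uninjured animals against 59.2 to 73.5 CPM in their flow-through (log2 fold change 2.02, SE 0.13, adjusted p = 7.59e-07).

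Il6st was 3.29-fold higher in HA IP than in flow-through of STAT3-CKO SCI animals (log2 fold change 1.72, SE 0.29, adjusted p = 0.000968). In WT SCI animals it did not pass the test (log2 fold change 0.39, SE 0.44, adjusted p = 0.679), and in WT uninjured animals it was 2.84-fold higher in HA IP (log2 fold change 1.504, SE 0.24, adjusted p = 0.00037). Il11ra1 was 6.33-fold higher in HA IP of WT uninjured animals (46.8 to 68.8 CPM against 6.60 to 11.6 CPM, adjusted p = 3.57e-06) and was not called in either injured group. Osmr was 10.8-fold higher in HA IP of WT uninjured animals (5.08 to 9.09 CPM against 0.0695 to 1.19 CPM, adjusted p = 0.000578). In STAT3-CKO SCI animals Osmr lay at 0.245 to 1.36 CPM in HA IP and 1.497 to 3.96 CPM in flow-through, which did not overlap and did not pass the test (log2 fold change -1.31, SE 0.86, adjusted p = 0.38). Jak2 was 1.51-fold higher in HA IP of WT uninjured animals (adjusted p = 0.00471), and its adjusted p was 0.325 with all 22 libraries in 1 fit.

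Il6ra lay lower in HA IP by its values, without a call, with log2 fold changes of -0.92 in STAT3-CKO SCI, -1.28 in WT SCI and -0.96 in WT uninjured animals (adjusted p = 0.218, 0.209 and 0.166). It passed without the HA IP library of WT SCI animal 9874 (log2 fold change -1.97, adjusted p = 0.0486) and without the flow-through of WT uninjured animal 42 (-1.32, adjusted p = 0.0137). Lifr and Jak1 did not differ between fractions past the threshold in any condition. Jak1 in WT uninjured animals had 177 to 223 CPM in HA IP and 172 to 222 CPM in flow-through, with a log2 fold change of 0.05 (SE 0.14). Lepr went the other way in WT uninjured animals, with 2.67, 0.498, 0.0527 and 0.474 CPM in HA IP of animals 42, 65, 79 and 154 against 11.2, 2.86, 0.368 and 1.65 CPM in their flow-through. In each of the 4 animals the HA IP was lower, and animal 42 was the highest in both fractions. The log2 fold change was -2.14 (SE 1.05, adjusted p = 0.111), and with the animal as a block it was -2.15 (adjusted p = 0.000803). Without the HA IP library of animal 42 it was -3.59 (adjusted p = 0.0184).

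**Figure D4:**
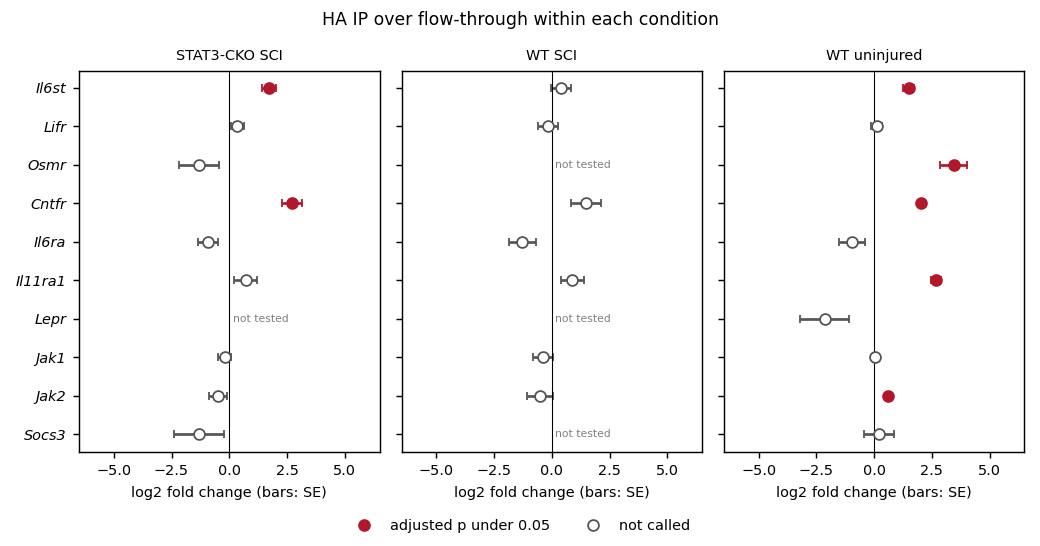
Log2 fold change of HA IP over flow-through (x axis, linear) with its SE for each gene, in STAT3-CKO SCI, WT SCI and WT uninjured animals; filled red points were called at an adjusted p under 0.05. Cntfr lies at 2.71 in STAT3-CKO SCI and 2.02 in WT uninjured animals, and Il11ra1 at 0.70, 0.88 and 2.66 in the 3 conditions from left to right.

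Whether an effect differed between HA IP and flow-through was tested in 1 fit of all 22 libraries, without pairing the libraries of an animal. For the effect of injury (WT SCI minus WT uninjured), edgeR called 0 of the 10 genes (2 at an unadjusted p under 0.05), where 4.71% of 15142 genes were called (2.67% higher and 2.03% lower). With the animal as a block, 1934 genes were called, against 713. Of those 713 calls 56.8% were higher, against 38.9% of calls under RLE scaling, which moved the median of all genes by -0.20. Il11ra1 rose less in HA IP than in flow-through by its value, with a difference of -1.58 on the log2 scale (SE 0.66, adjusted p = 0.187). With the animal as a block the difference was -1.97 (adjusted p = 0.0319), and without the HA IP library of animal 9935 it was -2.31 (adjusted p = 0.019). For the effect of genotype (STAT3-CKO SCI minus WT SCI), edgeR called 0 of the 10 genes (2 at an unadjusted p under 0.05), where 0.0264% of 15142 genes were called (0.0066% higher and 0.0198% lower), which is 4 genes, and 31 genes with the animal as a block. The Socs3 difference there was -2.69 (SE 1.28, adjusted p = 0.802) and the Il6st difference 1.27 (SE 0.50, adjusted p = 0.742), so the genotype effects in HA IP are not shown to differ from those in flow-through.

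Values that moved together across libraries are given as they stood. Il6ra and the microglia and macrophage marker sums were both high in STAT3-CKO SCI and WT SCI libraries and low in WT uninjured libraries, as given above. Il11ra1 in HA IP stood at 6.58 to 28.7 CPM where Rn45s took 52.2% to 89.2% of a STAT3-CKO SCI library, at 20.9 to 98.4 CPM at 89.0% to 96.2% in WT SCI libraries, and at 8.82 to 13.6 CPM at 12.6% to 26.7% in WT uninjured libraries. In flow-through of WT SCI animals the library with the highest share, 95.5%, had the lowest Il11ra1 of its group. The part of the ribosomal share in these values was not tested.

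**Figure D5:**
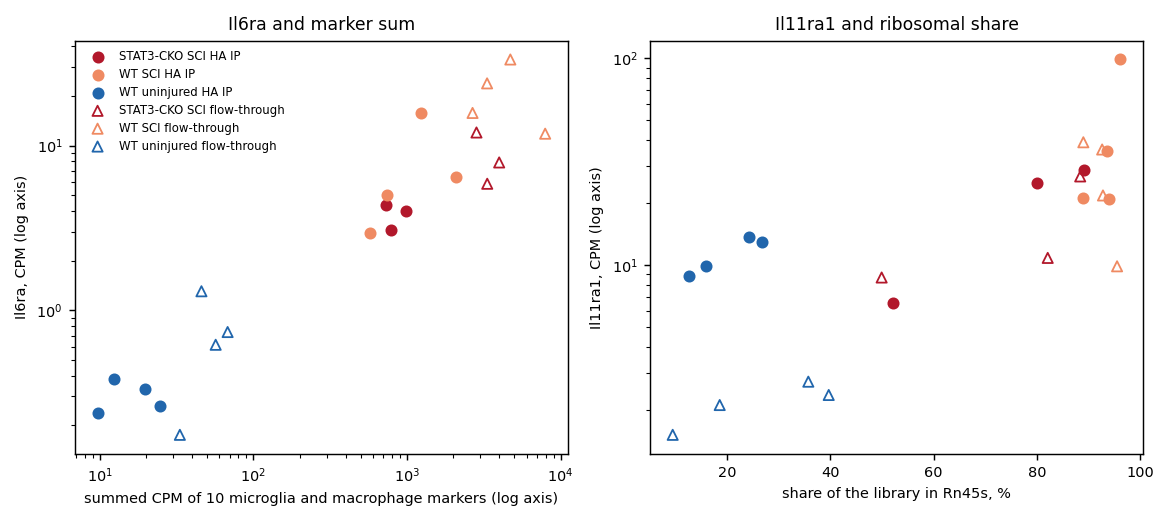
Left, Il6ra CPM (log y axis) against the summed CPM of 10 microglia and macrophage markers (log x axis); right, Il11ra1 CPM (log y axis) against the percentage of the library in Rn45s (linear x axis). Each point is 1 of 22 libraries, circles for HA IP and triangles for flow-through on their own CPM scales, and WT uninjured libraries sit at marker sums of 9.7 to 68.0 CPM.

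Over the 11 HA IP libraries, the genes whose log2 CPM was most like that of Socs3 among 3994 genes compared were Hspb1, Zc3h7b, C4b, Gpx1 and Ppp1r14b, with Pearson's r of 0.946, 0.946, 0.945, 0.944 and 0.942. For Osmr they were Sos1, Sf3b1, Bcl6, Ppm1a and Smad3, with r of 0.914, 0.891, 0.891, 0.888 and 0.873. These points fall into 3 conditions that differ in depth, so the values describe the libraries and carry no test.

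Other genes of the route were counted from lists drawn up with earlier results of these data known. Of 11 ligands of the family, 7 passed the filter in HA IP, and 3 rose in WT SCI over WT uninjured animals, where 15.8% of genes tested were called higher: Clcf1 (log2 fold change 6.77), Il11 (5.17) and Ebi3 (3.18). All 90 Clcf1 counts of the WT SCI group came from 1 library at 10.2 CPM, and Il6 had 0 counts in HA IP of STAT3-CKO SCI and WT SCI animals. A count of 3 corresponded to 0.0259 to 0.210 CPM in those STAT3-CKO SCI libraries and 0.206 to 0.978 CPM in those WT SCI libraries. Lower levels of Il6 were not detectable at this depth. Of 4 other receptors and receptor partners, 2 were tested and none was called between conditions in HA IP, where 1.16% to 26.7% of all genes tested were called. Leprot, a partner of the leptin receptor, rose in flow-through of STAT3-CKO SCI over WT uninjured animals (2.04). None of the 7 ligands was called for STAT3-CKO SCI over WT SCI in HA IP, where only 1.16% of all genes tested were called. In flow-through Ebi3, a subunit of interleukin 27, rose in both injured groups over WT uninjured animals (3.04 in STAT3-CKO SCI and 3.63 in WT SCI on the log2 scale).

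Among the STATs, the transcription factors of the route, Stat3 was lower in STAT3-CKO SCI than in WT SCI animals in HA IP (log2 fold change -2.17, SE 0.34, adjusted p = 0.00331). In HA IP of STAT3-CKO SCI over WT uninjured animals Stat6 (2.81) and Stat2 (1.59) rose. Stat6 (2.69), Stat2 (1.75), Stat3 (1.73) and Stat5b (1.38) rose in HA IP of WT SCI over WT uninjured animals. In flow-through, Stat6 (3.44) and Stat5a (2.35) rose in STAT3-CKO SCI over WT uninjured animals, and Stat6 (3.44), Stat5a (3.21), Stat2 (1.86) and Stat3 (1.48) rose in WT SCI over WT uninjured animals. Among the other kinases, Jak3 rose in HA IP of WT SCI over WT uninjured animals (3.35), on 28 counts, and Tyk2 rose in flow-through of STAT3-CKO SCI and WT SCI over WT uninjured animals (1.97 and 2.37).

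Of the 7 other SOCS genes, 6 were tested in HA IP, and 1 rose in WT SCI over WT uninjured animals, against the same 15.8% of all genes. That gene was Socs6, at 6.14 ± 3.42 CPM in WT SCI against 1.11 ± 0.115 CPM in WT uninjured animals (SD, n = 4 each; log2 fold change 2.49, adjusted p = 0.00215). None of the 6 was called for STAT3-CKO SCI over WT SCI, where only 1.16% of all genes tested were called. In flow-through Socs6 rose in STAT3-CKO SCI and in WT SCI over WT uninjured animals (2.19 and 3.70), and Socs7 rose in WT SCI (1.84). Of 7 other inhibitors, 3 rose in HA IP of WT SCI over WT uninjured animals, where 15.8% of all genes did: Ptpn6, a phosphatase of blood-derived cells (5.94), Pias4 (2.22) and Ptpn1 (2.06). Ptpn6 and Ptpn1 also rose in STAT3-CKO SCI over WT uninjured animals (4.59 and 1.76), and the microglia and macrophage marker sums given above moved with them. Ptpn1 rose in flow-through of STAT3-CKO SCI and WT SCI over WT uninjured animals as well (2.12 and 3.16), and Ptpn2 in WT SCI (1.66). Of 6 adaptors none was called between conditions in HA IP, where 1.16% to 26.7% of all genes tested were called. In flow-through Shc1 rose and Gab1 fell in STAT3-CKO SCI (2.13 and -1.12) and in WT SCI (2.85 and -1.09) over WT uninjured animals.

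Of 18 genes known to be induced through STAT3, 14 rose in HA IP of WT SCI over WT uninjured animals, where 15.8% of genes tested were called higher, and their median log2 fold change was 2.68. Beside them stood markers of other cell types, with 9 of 10 of microglia and macrophages, 7 of 7 of oligodendrocytes and 5 of 5 of oligodendrocyte precursors higher. Rn45s took 89.0% to 96.2% of those WT SCI libraries and 12.6% to 26.7% of the WT uninjured ones, and the part of any of these in the counts was not tested. The 8 largest were Lcn2 (8.59), Timp1 (7.76), Junb (5.51), Cebpd (4.90), Cebpb (4.70), Serpina3n (4.13), Il4ra (3.47) and Vim (3.23). In STAT3-CKO SCI against WT SCI animals, 5 of the 18 fell, where 0.562% of genes tested were called lower: Lcn2 (-6.03), Timp1 (-5.15), Serpina3n (-4.24), Cebpd (-3.50) and Gfap (-2.13). The median of the 18 was -1.46. In flow-through 2 of the 16 tested fell in the same comparison, Gfap (-2.47) and Serpina3n (-2.45), where 0.0315% of genes tested were called lower. Against WT uninjured animals 8 of the 16 rose in flow-through of STAT3-CKO SCI and 12 of WT SCI animals, where 10.4% and 16.7% of genes tested were called higher. In STAT3-CKO SCI over WT uninjured animals 6 of the 18 rose in HA IP, where 7.7% of genes tested were called higher: Cebpb (3.56), Irf1 (3.10), Junb (2.79), Timp1 (2.62), Vim (2.19) and Ccnd1 (1.18).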

How the data were processed

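Groups come from the labels, which give genotype, injury and fraction, and sample titles give the animal. The authors deposited 5 tables of 24060 gene rows, and per the file headers the columns used hold raw counts per gene, with no normalization. Not used were 124 further columns. The submitters' processing notes name CASAVA 1.8.2, mm10 and edgeR, without saying what each was used for. Aligner, counting tool and strand setting: not given in the sources used here. Of 27 rows with a date for a symbol, 25 were given one by accession.

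edgeR 4.0.16 (R 4.3.3, limma 3.58.1) was run on these counts with filterByExpr, TMM scaling and the two-sided quasi-likelihood test, and calls were made at a Benjamini-Hochberg adjusted p under 0.05 over all genes tested. The 11 libraries of a fraction entered 1 fit, the libraries of a condition another, and all 22 the tests between effects. SE is the log2 fold change over the root of its F statistic. Scripts were tested on simulated data. Alternatives were RLE scaling, no filter, DESeq2 1.42.0, no ribosomal rows (Rn45s, Lars2, Mir6236), libraries thinned to equal depth (seed 1), only the 2 groups compared, the animal as a block, all 22 libraries in 1 fit, and each library left out.

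The 2 fractions of an animal are paired by the tissue they came from, and their deviations from the group means correlated at 0.319 to 0.679 in all 11 animals over 15142 genes. Libraries of a group differed by more than counting noise (lowest chi-square per degree of freedom 4.83), so each animal counted as 1 replicate within a fraction. Fits of both fractions took the 2 libraries of an animal as separate, except where the animal was a block. All spreads are between these animals.

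The genes and lists were chosen with earlier results of these data known. All 10 genes were named in every comparison, and from the lists the genes called, at most 8 per list and comparison by size of change, plus Stat3; like genes were the 5 with the highest r among genes with a mean log2 CPM of at least 3 (prior count 2). Il6 and the Il11ra1 copies were named after their counts were seen. Levels per kb use the length of the RefSeq transcript in the row; coordinates and lengths are from GENCODE vM21 (GRCm38, the same assembly as mm10), and promoter stretches from RefSeq (GRCm38.p6), matched by symbol for all 10 genes. Limits of 3 counts cover counting error only. For the STATs only part of the list is reported here, so no count over that list is given.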

Additional observations from a re-analysis of the deposited data

Results flagged for a closer look

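Dixon's criterion was applied to each gene in the 4-animal groups, 40 in all, of which 4 held a library far from the others; chance gives about 1 in 20. Osmr in flow-through of WT SCI animal 9596 was at 9.88 CPM, with the other 3 animals at 0 to 0.738 CPM. Socs3 in flow-through of WT SCI animal 9935 was at 5.91 CPM, which is 3 counts, with the others at 0.681 to 1.55 CPM. Jak2 in HA IP of WT SCI animal 9596 was at 11.8 CPM, with the others at 6.19 to 7.01 CPM. Lepr in HA IP of WT SCI animal 9843 was at 1.22 CPM, which is 7 counts, with the others at 0 to 0.113 CPM.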

How the results depend on the processing

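Of 1822 values of single genes under another setting, over 103 results, 1663 kept their direction and their side of the threshold, 49 lost a call, 23 gained one and 87 changed sign. None of those 87 was a call in either setting. The log2 fold changes of Il6ra, Socs3 and Cntfr between WT SCI and WT uninjured animals in HA IP were called under every setting that tested them. Depth limited some calls: with flow-through libraries thinned to that of WT SCI animal 9935, Il6ra, Cntfr, Jak2, Osmr and Lepr did not pass the filter, so their calls there could not be repeated. Osmr and Lepr also dropped out of HA IP when thinned. Without ribosomal rows Osmr and Lepr dropped out of flow-through, and Lepr of HA IP. DESeq2 gave no adjusted p for 6 values, all of Lepr or Socs3.

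The number of the genes called moved as follows. For WT SCI against WT uninjured in HA IP it was 4, with 5 under no filter, DESeq2, no ribosomal rows and the 2-group fit, each adding Jak1. For STAT3-CKO SCI against WT SCI in HA IP it was 2, with 1 when thinned, 0 with only the 2 groups, and 0 to 2 without 1 library. For STAT3-CKO SCI against WT uninjured in HA IP it was 2, with 1 when thinned, 4 with only the 2 groups, and 1 to 3 without 1 library. For WT SCI against WT uninjured in flow-through it was 6, with 1 when thinned, 3 with only the 2 groups, and 4 to 6 without 1 library. For STAT3-CKO SCI against WT uninjured in flow-through it was 4, with 0 when thinned, 3 without ribosomal rows, 5 in DESeq2, which added Jak2, and 3 to 4 without 1 library. The 2-group fit gave 4 there, with Jak2 called and Osmr not tested. For HA IP against flow-through in WT SCI it was 0, with 1 in the fit of 22 libraries and 0 to 1 without 1 library. For the injury effect between fractions it was 0, with 1 under the replicate block and 0 to 1 without 1 library. Pairing by animal (the replicate block) gave 6 calls against 5 for HA IP over flow-through in WT uninjured animals, adding Lepr, and changed no call of a member beyond these 2. Thinning uses fewer counts and the 2-group fits fewer libraries, and the cause of these changes was not tested.

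Over all genes tested, the count of calls ranged with the setting from 36 (2 groups) to 917 (DESeq2) around 171 for STAT3-CKO SCI against WT SCI in HA IP, and from 897 (thinned) to 3585 (2 groups) around 1444 for STAT3-CKO SCI against WT uninjured. In flow-through the ranges were 1341 (thinned) to 4445 (DESeq2) around 3933 for WT SCI against WT uninjured, 4 (2 groups) to 213 (DESeq2) around 15 for STAT3-CKO SCI against WT SCI, and 678 (thinned) to 2751 (2 groups) around 1769 for STAT3-CKO SCI against WT uninjured. HA IP over flow-through gave 1157 (22 libraries) to 3105 (block) around 1496 in STAT3-CKO SCI, 462 (thinned) to 1706 (22 libraries) around 529 in WT SCI and 3369 (22 libraries) to 9082 (block) around 7250 in WT uninjured animals. The injury effect between fractions gave 246 (thinned) to 1934 (block) around 713, and the genotype effect 0 (thinned) to 31 (block) around 4. Of the calls of DESeq2 for STAT3-CKO SCI against WT uninjured, 66.5% were higher in HA IP (78.7% of calls in edgeR), and 54.8% in flow-through.

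Values that changed sign, none of them called, were these log2 fold changes. In HA IP of WT SCI against WT uninjured they were Il6st when thinned (0.0724) and Jak2 under RLE (-0.00296), no filter (-0.0498), no ribosomal rows (-0.0627), thinning (-0.479) and the 2-group fit (-0.0631). Thinning also turned Jak2 in HA IP (0.0848) and Jak1 in flow-through (-0.00929) of STAT3-CKO SCI against WT SCI, Jak1 in HA IP over flow-through of WT uninjured animals (-0.0324, and -0.0439 with 22 libraries), and Lifr (0.0212) and Cntfr (0.269) in the injury effect. In the genotype effect the block turned Il11ra1 (0.0147) and Jak1 (-0.0716), and Jak2 turned under RLE (0.0176) and DESeq2 (0.0267).

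Leaving out 1 library turned the following, given as the lowest and highest value. HA IP of WT SCI against WT uninjured: Il6st -0.137 to 0.0588, Lepr -2.14 to 2.22, Jak2 -0.275 to 0.102. HA IP of STAT3-CKO SCI against WT SCI: Lepr -2.35 to 1.18, Jak2 -0.459 to 0.158. HA IP of STAT3-CKO SCI against WT uninjured: Lepr -1.43 to 0.393, Jak2 -0.477 to 0.0488. Flow-through of WT SCI against WT uninjured: Lepr -2.05 to 0.657. Flow-through of STAT3-CKO SCI against WT SCI: Cntfr -0.767 to 0.644, Lepr -6.91 to 0.674, Jak2 -0.272 to 0.14. Flow-through of STAT3-CKO SCI against WT uninjured: Jak1 -0.207 to 0.00935. HA IP over flow-through of WT SCI: Lifr -0.341 to 0.262, Jak1 -0.551 to 0.156. HA IP over flow-through of WT uninjured: Lifr -0.0514 to 0.304, Jak1 -0.0201 to 0.144. Genotype effect: Il6ra -0.0166 to 0.916, Lepr -2.28 to 6.78, Il11ra1 -0.572 to 0.524, Jak1 -0.431 to 0.266, Jak2 -0.363 to 0.202. Injury effect: Osmr -3.73 to 0.323, Lifr -0.293 to 0.304, Il6ra -0.713 to 0.272, Cntfr -0.619 to 0.277, Lepr -1.91 to 3.02, Jak1 -0.391 to 0.335.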
